A study of Mus musculus with 9 samples.

Results

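The homeobox genes Hoxa5, Hoxa7, Hoxa9 and Hoxa10 were followed together with Meis1, Pbx2 and Pbx3, which encode DNA-binding partners of HOX proteins, in RNA-seq libraries of BCR/ABLp185+ leukemic cell lines. The 7 genes were chosen by name as homeobox genes linked to leukemia, out of 50686 genes in the count files. Each of 3 genotypes, wt, Stat5a-/- and Stat5b-/-, was represented by 1 cell line grown from C57BL/6N bone marrow and by 3 technical replicates of that line, which gave 9 libraries. All 3 lines carried the BCR/ABLp185 oncogene, introduced with a retrovirus, and the wt line served as control. With 1 line per genotype, the tests compared 3 lines and not independent lines of each genotype, and a difference between lines cannot be told apart from an effect of the deleted gene. The comparisons ask how the loss of STAT5A or of STAT5B goes along with the expression of these genes. The knockout libraries were grouped by their titles and genotype labels, against which their free-text description reads as wt.

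HOX proteins are transcription factors that set positional identity in the embryo and are expressed in hematopoietic stem and progenitor cells, where they are switched off as the cells mature. HOXA9 and its partner MEIS1 are known for driving acute leukemia, in particular with rearranged MLL. PBX and MEIS proteins belong to the TALE class of homeodomain proteins and bind DNA jointly with HOX proteins, and PBX3 is a partner of HOXA9 in myeloid leukemia.

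Library totals lay between 11948136 and 19016396 counted reads. Stat5a had 713 to 784 reads in the wt libraries and 146 to 169 in the Stat5a-/- libraries, and Stat5b had 1685 to 2045 in wt and 781 to 1055 in Stat5b-/-, so that both deleted genes were lowest in the line labelled as lacking them but kept reads there. The 12 B-lineage markers all passed the count filter in this bone marrow material, with a summed level of 4785 to 5086 normalized CPM in wt, 6567 to 7287 in Stat5a-/- and 5869 to 6693 in Stat5b-/-. Normalized CPM are counts per 1000000 reads after TMM scaling of the library totals. The summed level of 16 T-cell markers was 771 to 1039 normalized CPM in wt, 1411 to 1609 in Stat5a-/- and 1776 to 2510 in Stat5b-/-, with reads of all 16 in every line. Myeloid, stromal and erythroid markers were low, between 0.273 and 14.2 normalized CPM in sum, with Elane at 0 in both knockout lines and Ctsg, Col3a1 and Pdgfra at 0 in all 3 lines. Against wt, 8 of the 16 T-cell markers were called higher in Stat5a-/- and 15 in Stat5b-/- with 0 lower in both, and 7 of the 12 B-lineage markers were higher and 3 lower in each knockout line. Of all genes tested, 19.8% were called higher and 16.3% lower in Stat5a-/- against wt, and 24.2% and 22.0% in Stat5b-/-. Among the B-lineage markers, Rag1 had 1002 to 1328 reads in wt, 1 to 3 in Stat5a-/- and 7 to 11 in Stat5b-/-. Rag2 had 477 to 744, 0 to 2 and 6 to 16 reads. Dntt fell in Stat5a-/- (log2 fold change -1.63) and rose in Stat5b-/- (1.32). The myeloid genes Lyz2 and Csf1r were called higher and the erythroid genes Hbb-bt and Klf1 lower in Stat5b-/- against wt, and no stromal marker passed the filter. The call of Csf1r was lost without wt replicate 1 (adjusted p = 0.0532 in edgeR) or Stat5b-/- replicate 1 (0.0612), and that of Klf1 without Stat5b-/- replicate 2 (0.0582). The part of these markers in the differences below was not tested. In bulk RNA, fewer cells that express a gene and less RNA per cell cannot be told apart.

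The PBX genes resemble each other in sequence, and Pbx2 and Pbx3 differed in their response, so the stretch of 90 coding bases most alike between Pbx2 and Pbx3 is shown. It spans 2 coding exons in each gene, with its GRCm38 positions from first to last base at chr2:34370876-34371788 on the minus strand for Pbx3, chr17:34592707-34593593 on the plus strand for Pbx2 and chr8:69832784-69859101 on the plus strand for Pbx4. Capitals mark the bases at which a gene differs from Pbx3, and in the line of Pbx3 itself those at which it differs from Pbx2. The sequences are from the GENCODE M21 transcripts.
Pbx3: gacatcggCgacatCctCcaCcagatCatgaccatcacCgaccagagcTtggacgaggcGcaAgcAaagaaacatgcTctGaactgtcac
Pbx2: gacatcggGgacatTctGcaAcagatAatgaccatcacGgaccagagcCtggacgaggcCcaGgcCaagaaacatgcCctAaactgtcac
Pbx4: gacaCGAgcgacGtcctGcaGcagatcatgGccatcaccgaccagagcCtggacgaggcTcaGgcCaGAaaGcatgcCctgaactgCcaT
Pbx2 differed from Pbx3 at 12 of the 90 bases, and the longest run without a difference was 11 bases, which is shorter than the 50-base reads. Over the whole transcripts, 0 of the 6237 stretches of 50 bases of Pbx3 occurred in another gene. Of the 3632 stretches of Pbx2, 179 did, all of them in Gpsm3, which overlaps it by 227 exon bases. A read of Pbx3 could therefore be told from one of Pbx2 by its sequence.

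The HOXA genes were close to silent in all 3 lines. Hoxa9 (chr6:52223100-52231089, minus strand), the HOXA gene most used to drive leukemia in models, had 0 reads in each of the 9 libraries. Hoxa10 (chr6:52231197-52240854, minus strand), its neighbor in the cluster, likewise had 0 reads in every library. Over the 132490885 counted reads of all 3 lines together, a count of 0 allows a level of up to 0.0226 CPM. For each line alone it allows up to 0.0589 CPM in wt, 0.075 in Stat5a-/- and 0.0721 in Stat5b-/-. These limits of 3 reads cover counting error only, since the reads carried no molecular identifiers. For comparison, 45.7% of all genes in the count files had no read in any library.

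Hoxa5 (chr6:52201754-52204587, minus strand), a gene of the middle of the cluster, had 4, 5 and 4 reads in wt, 2, 5 and 0 in Stat5a-/-, and 8, 5 and 8 in Stat5b-/-. The Stat5b-/- libraries reached the highest counts, and 1 of them had no more reads than the highest library of either other line. Hoxa7 (chr6:52214491-52221854, minus strand) had 0, 3 and 4 reads in wt, 3, 3 and 3 in Stat5a-/-, and 8, 4 and 4 in Stat5b-/-. The Stat5a-/- counts lay within the range of wt, and wt and Stat5b-/- shared the value of 4 reads. Hoxa7 shares 586 exon bases with Hoxaas3, an RNA of the opposite strand that had 1 to 6 reads per library, and the counting was not stated to use strand. Hoxa9 overlaps the microRNA gene Mir196b by 85 exon bases, and Mir196b had 0 reads as well.

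Meis1 (chr11:18879817-19018985, minus strand), the cofactor that speeds up HOXA9-driven leukemia, had 0, 5 and 2 reads in wt, 0, 1 and 0 in Stat5a-/-, and 0, 0 and 0 in Stat5b-/-. The 8 reads in all came from 3 libraries, and the wt line held 7 of them. Exons of Meis1 overlap those of Gm37818 and Gm16140, which had 1 and 0 reads in total. Of the 10853 stretches of 50 bases of Meis1, 1843 also occurred in other genes, 432 genes in all. The effect of this on its reads was not tested. None of the 5 genes Hoxa5, Hoxa7, Hoxa9, Hoxa10 and Meis1 passed the filter on low counts, and no fold change is given for them. Fitted with edgeR without that filter, Hoxa5, Hoxa7 and Meis1 had adjusted p between 0.091 and 0.789 in the 3 comparisons, and 2 of these 9 values had an unadjusted p under 0.05. These differences were not detectable at this depth.

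**Figure D1:**
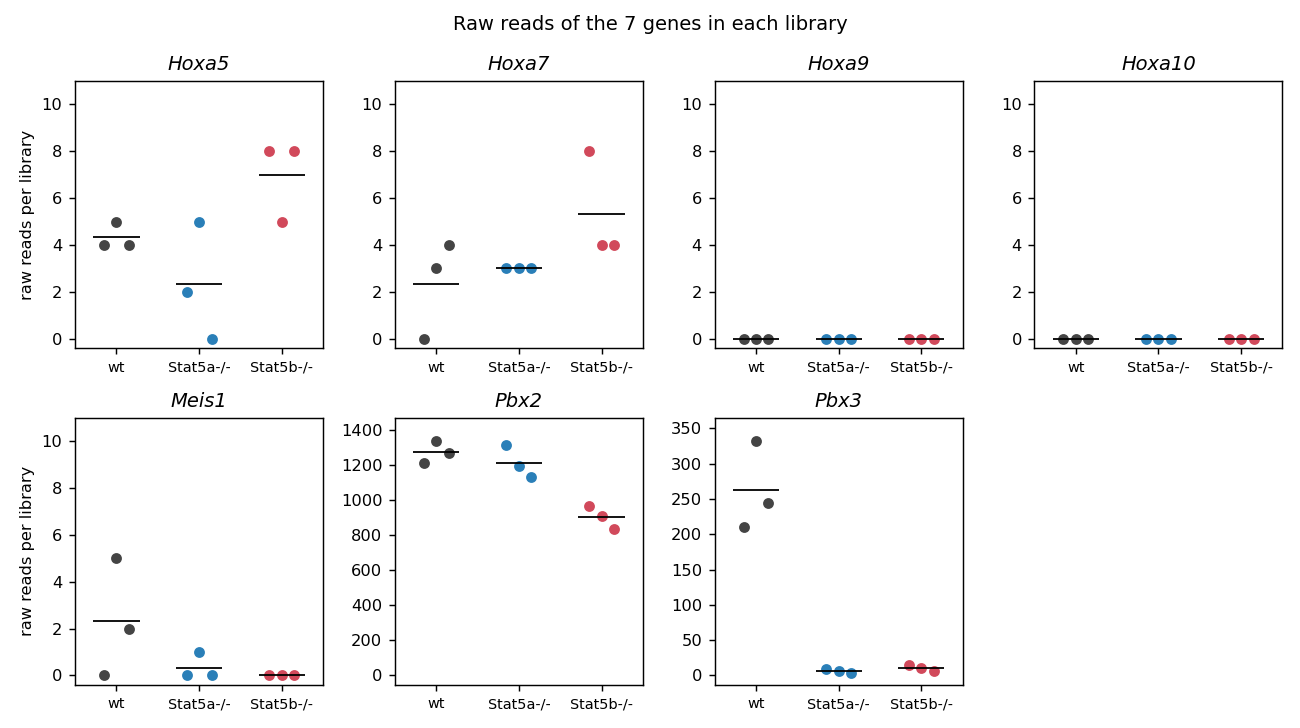
Raw reads (vertical axes, each with its own scale from 0) of the 7 genes in the 9 libraries, grouped by genotype. Points are libraries and lines the mean of 3. Pbx2 lies between 837 and 1337 reads, Pbx3 is above 200 reads only in wt, and Hoxa5, Hoxa7, Hoxa9, Hoxa10 and Meis1 stay between 0 and 8 reads.

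Only Pbx2 and Pbx3, 2 of the 7 genes, passed the filter. Pbx3 passed it through its wt libraries and failed it in a fit of the knockout lines alone, so the counts of these 2 are a description. Pbx2 held 91.7% of the 11101 reads of the 7 genes and Pbx3 7.55%. Pbx3 fell in both knockout lines, whereas Pbx2 rose in Stat5a-/- and not in Stat5b-/-. Genes were called by the quasi-likelihood test of edgeR over 13852 genes, with Benjamini-Hochberg adjusted p below 0.05. In Stat5a-/- against wt 1 of the 2 was higher and 1 lower, where 19.8% and 16.3% of all genes tested were called higher and lower. The comparison of Stat5b-/- with wt called 0 higher, beside 24.2% of all genes, and 1 lower, beside 22.0%. Stat5b-/- against Stat5a-/- gave 0 higher, beside 16.4% of all genes, and 1 lower, beside 17.5%. Calls were thus common across the genome in these lines.

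Pbx3 (chr2:34171457-34373142, minus strand), a PBX family gene known for its role beside HOXA9, had 211, 332 and 244 reads in wt, 9, 6 and 3 in Stat5a-/-, and 15, 11 and 7 in Stat5b-/-. Every wt library lay far above every knockout library, while the counts of the knockout lines overlapped each other. The level of 14.7 ± 1.78 normalized CPM (SD, n = 3) in wt compared with 0.463 ± 0.181 in Stat5a-/- and 0.771 ± 0.248 in Stat5b-/-. The log2 fold change was -4.93 (SE 0.265, adjusted p = 1.02e-08) in Stat5a-/- against wt, which is 30.5-fold lower. It was -4.23 (SE 0.238, adjusted p = 1.42e-08), or 18.8-fold lower, in Stat5b-/- against wt. Both falls passed a fold change above 2 as well, a limit met by 6.49% of all genes as falls in Stat5a-/- and 8.44% in Stat5b-/-. Of the 13852 genes tested, 0.967% had a lower log2 fold change than Pbx3 in Stat5a-/- and 1.6% in Stat5b-/-. Between the knockout lines the log2 difference was 0.70 with an SE of 0.398 (adjusted p = 0.195) and did not pass the test, with 18 reads in Stat5a-/- and 33 in Stat5b-/- behind it.

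The fall of Pbx3 was not shared by most genes around it. The 122 tested genes that start within 5 Mb had a median log2 fold change of -0.06 in Stat5a-/- and -0.07 in Stat5b-/-, against medians of 0.01 and 0.02 over all genes tested. Only 3 of these 122 genes had a lower value than Pbx3 in either comparison. On chromosome 2 as a whole the median of the other 1065 genes was -0.06 in Stat5a-/- and 0.01 in Stat5b-/-.

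Pbx2 (chr17:34591266-34597400, plus strand), a broadly expressed PBX gene within the major histocompatibility complex, had 1214, 1337 and 1270 reads in wt, 1315, 1194 and 1134 in Stat5a-/-, and 969, 912 and 837 in Stat5b-/-. The raw counts of wt and Stat5a-/- overlapped, and those of Stat5b-/- lay below both. Scaled to library totals, the values were 77.0, 67.5 and 73.3 normalized CPM in wt, 92.0, 97.2 and 102 in Stat5a-/-, and 66.4, 62.3 and 63.8 in Stat5b-/-. On this scale all 3 Stat5a-/- libraries were highest and all 3 Stat5b-/- libraries lowest, with no overlap. Pbx2 rose in Stat5a-/- against wt by a log2 fold change of 0.42 (SE 0.0939, adjusted p = 0.0033), or 1.34-fold. The log2 fold change of -0.18 in Stat5b-/- against wt (SE 0.0942, adjusted p = 0.141) did not pass the test. Between the knockout lines Pbx2 was lower in Stat5b-/- by a log2 difference of -0.60 (SE 0.0946, adjusted p = 0.000331), or 1.51-fold. These changes stayed below a fold change of 2. With an offset for GC content the rise in Stat5a-/- was 0.22 on the log2 scale, still past the test at an adjusted p of 0.0277, but not when the replicate number was added as a block (0.22, adjusted p = 0.0595). With the GC offset alone the fall in Stat5b-/- against wt passed the test (-0.20, adjusted p = 0.0395).

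The difference of Pbx2 was accompanied by that of its chromosome. On chromosome 17 the median log2 fold change of the other 676 tested genes was 0.54 in Stat5a-/- against wt, with 379 of them called higher and 24 lower, and Pbx2 lay below this median. Of the 177 tested genes within 5 Mb of Pbx2, 111 were called higher and 2 lower, with a median of 0.61, and 121 of them had a larger log2 fold change than Pbx2. Chromosomes 18 and 19 had medians of 0.43 and 0.41, and among the 20 chromosomes with at least 100 tested genes the next highest median was 0.09, on chromosome 6. The median of chromosome 17 was 0.14 in Stat5b-/- against wt, where Pbx2 had a value of -0.18. Between the knockout lines the median was -0.42, with 308 genes called lower and 44 higher, and Pbx2 again lay below it at -0.60. The part of this shift in the values of Pbx2 was not tested.

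**Figure D2:**
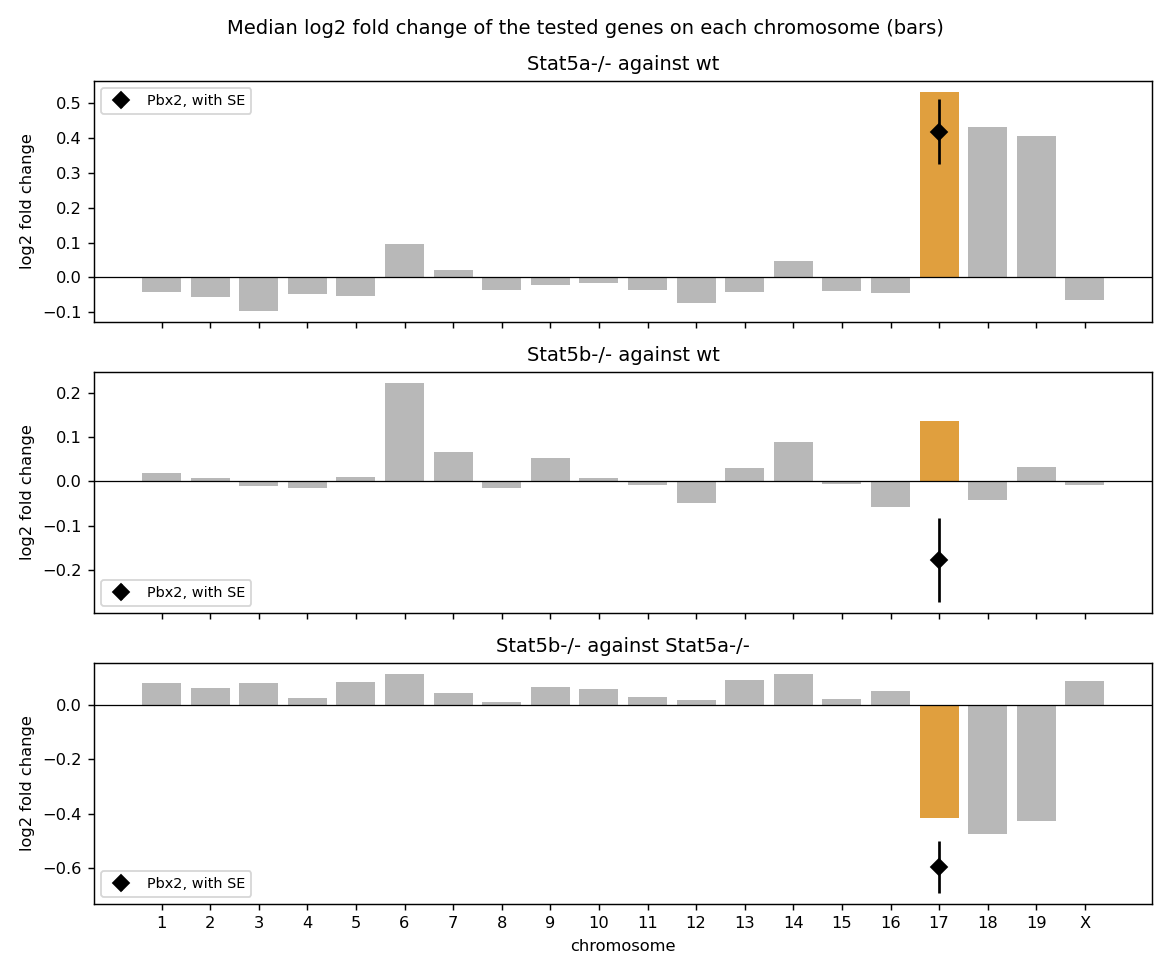
Median log2 fold change of the tested genes on each of 20 chromosomes (bars, vertical axis, chromosome 17 in orange) in the 3 comparisons, with Pbx2 and its SE as a black diamond. Pbx2 lies below the median of chromosome 17 in all 3 panels, at 0.42 against a median of 0.53 over all 677 genes of the chromosome in Stat5a-/- against wt.

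**Figure D3:**
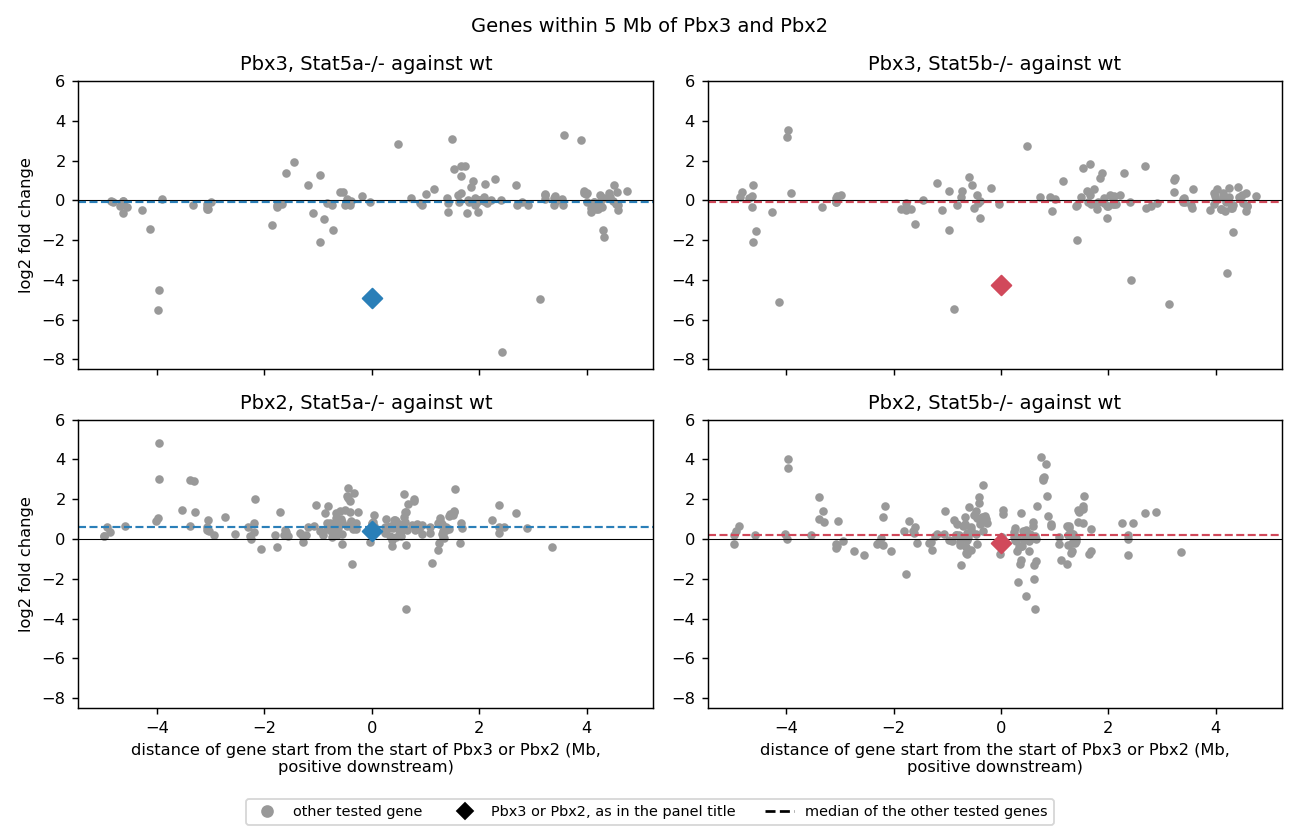
Log2 fold change (vertical axis) of the tested genes within 5 Mb of Pbx3 (upper panels) and Pbx2 (lower panels) against the distance of their start (horizontal axis, Mb), for Stat5a-/- and Stat5b-/- against wt. The diamond of Pbx3 stands far below the dashed median of its 122 neighbors, while Pbx2 lies among its 177 neighbors.

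Gpsm3, the gene whose exons overlap those of Pbx2 on the same strand, had 1993 to 2280 reads in wt, 2348 to 2635 in Stat5a-/- and 1303 to 2132 in Stat5b-/-. It encodes a regulator of G-protein signaling. Its log2 fold change was 0.75 (SE 0.165, adjusted p = 0.00301) in Stat5a-/- against wt and -0.01 (SE 0.165, adjusted p = 0.971) in Stat5b-/- against wt. Between the knockout lines Gpsm3 was lower in Stat5b-/- by a log2 difference of -0.76 (SE 0.166, adjusted p = 0.00359 in edgeR).

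Per length of exon, Pbx2 was the most abundant of Pbx2, Pbx3 and Pbx4 in every line. In wt the level was 20.0 ± 1.32 normalized CPM per kb (SD, n = 3) for Pbx2, 2.41 ± 0.292 for Pbx3 and 2.35 ± 0.393 for Pbx4. Pbx3 and Pbx4 differed by less than the spread between libraries. In Stat5a-/- the order was Pbx2 at 26.7 ± 1.41, Pbx4 at 2.18 ± 0.316 and Pbx3 at 0.0757 ± 0.0296 normalized CPM per kb. In Stat5b-/- it was Pbx2 at 17.6 ± 0.574, Pbx4 at 2.53 ± 0.266 and Pbx3 at 0.126 ± 0.0406. Pbx3 was thus level with Pbx4 in wt and below it in both knockout lines. Pbx2 made up 80.7% ± 0.735 of the summed level of Pbx2, Pbx3 and Pbx4 in wt, 92.2% ± 0.584 in Stat5a-/- and 86.9% ± 1.18 in Stat5b-/-, and Pbx3 9.83% ± 1.77, 0.266% ± 0.117 and 0.619% ± 0.178. Among genes that passed the filter, 80.0% had a lower level per length than Pbx2 in wt, and 33.7% had a lower level than Pbx3.

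Other TALE genes were set beside them as a list of 7, of which 6 passed the filter, which a gene could do through 1 line alone. In Stat5a-/- against wt 2 were called higher and 1 lower, beside 19.8% and 16.3% of all genes tested. The median log2 fold change of the list was 0.09, beside 0.01 over all genes tested. In Stat5b-/- against wt 1 was higher and 2 lower, beside 24.2% and 22.0%, with a median of -0.02 beside 0.02. Meis2, a paralog of Meis1 on the same chromosome as Pbx3, had 426, 536 and 446 reads in wt, 1, 1 and 4 in Stat5a-/-, and 13, 16 and 12 in Stat5b-/-. Its libraries separated into 3 ranges without overlap. Meis2 fell in Stat5a-/- (log2 fold change -7.31, SE 0.279, adjusted p = 4.28e-10) and in Stat5b-/- (-4.77, SE 0.205, adjusted p = 1.32e-09). Unlike Pbx3, it also differed between the knockout lines, by 2.54 (SE 0.454, adjusted p = 0.00086). Meis3, the third MEIS gene, had 57 to 106 reads in all 9 libraries, with log2 fold changes of 0.30 (SE 0.183, adjusted p = 0.235) and 0.22 (SE 0.182, adjusted p = 0.34) that did not pass the test. Of the summed MEIS level per length, the share of Meis2 was 59.1% ± 2.98 (SD, n = 3) in wt and dropped to 0.813% ± 0.868 in Stat5a-/- and 4.38% ± 1.07 in Stat5b-/-. Meis1 held 0.309% ± 0.303 of it in wt.

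Pknox1, which encodes a PBX-binding relative of MEIS, lies on chromosome 17 like Pbx2 and rose in Stat5a-/- (0.39, SE 0.0927, adjusted p = 0.00501) and in Stat5b-/- (0.91, SE 0.0927, adjusted p = 4.2e-06). Tgif1, a TALE repressor gene on the same chromosome, rose in Stat5a-/- (0.35, SE 0.0988, adjusted p = 0.0149), and this call was lost at adjusted p of 0.0597, 0.0608 and 0.079 without wt replicate 1, wt replicate 3 and Stat5a-/- replicate 2, and at 0.0541 without the filter on low counts. Like Pbx2, Tgif1 was lower in Stat5b-/- than in Stat5a-/- (-0.50, SE 0.0995, adjusted p = 0.00181). Tgif2, its paralog, fell in Stat5b-/- (-1.38, SE 0.308, adjusted p = 0.00264) from 37 to 39 reads in wt to 7 to 14 reads. Pbx4 had 58 to 95 reads in every library and passed no test, and Pknox2 had 0 reads and lay below the filter.

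**Figure D4:**
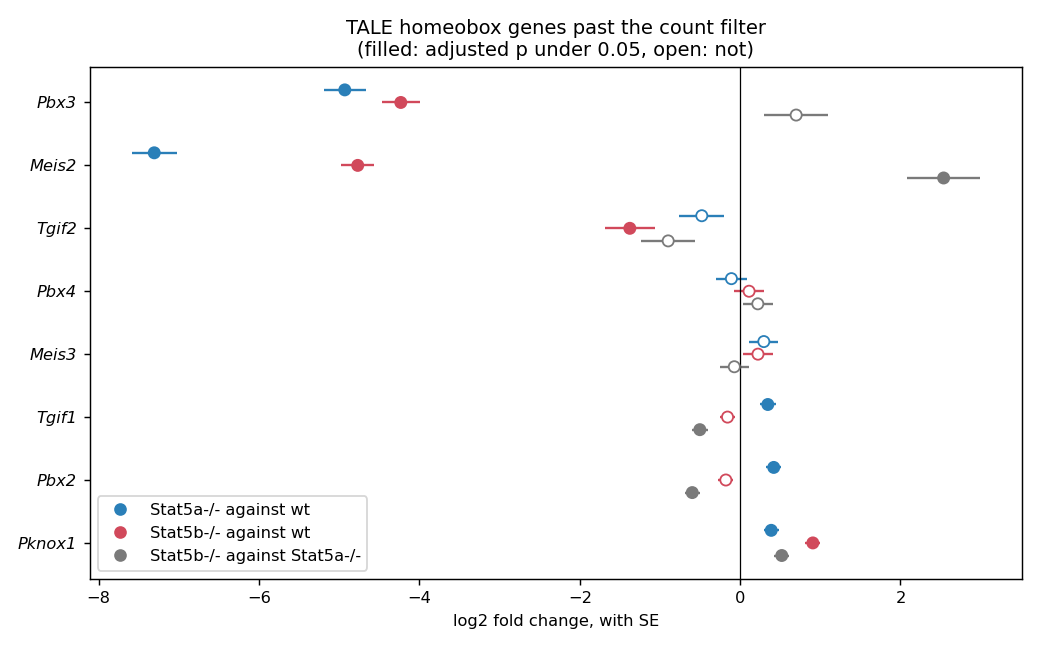
Log2 fold change with its SE (horizontal axis) of Pbx2, Pbx3 and the 6 other TALE genes that passed the filter, in 3 comparisons of cell lines with 3 libraries each. Filled points passed the test at an adjusted p under 0.05. Pbx3 and Meis2 lie below -4 in both knockout lines against wt, and the points of the other 6 lie between -1.38 and 0.91.

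Near-silence was not shared by all HOX clusters. The 39 HOX genes had 13167 reads in all, of which the HOXB cluster held 98.9% and the HOXA cluster 0.835%. The other 7 HOXA genes had 0 to 4 reads per library, and Hoxa11 and Hoxa13 had 0 in all. The 9 HOXC genes had 29 reads in total, 22 of them from Hoxc6 in wt, and the 9 HOXD genes had 3. Of the 10 HOXB genes, 5 passed the filter. In Stat5a-/- against wt all 5 were lower, beside 16.3% of all genes tested, with a median log2 fold change of -1.97 beside 0.01. Of the same 5 genes, 2 were lower and 0 higher in Stat5b-/- against wt, beside 22.0% and 24.2% of all genes. Their median was -0.35 beside 0.02. Between the knockout lines all 5 were called with the higher level in Stat5b-/-, beside 16.4% of all genes, and their median was 1.64 beside 0.02. A HOXB gene could pass the filter through the wt line alone, so these counts are a description of the genes with reads.

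Hoxb8, a HOX gene that can immortalize myeloid progenitors, had 2299, 2776 and 2709 reads in wt, 32, 41 and 33 in Stat5a-/-, and 211, 167 and 148 in Stat5b-/-. It fell in Stat5a-/- (log2 fold change -5.70, SE 0.164, adjusted p = 4.29e-11) and in Stat5b-/- (-3.57, SE 0.138, adjusted p = 5.32e-10), and it was higher in Stat5b-/- than in Stat5a-/- (2.13, SE 0.169, adjusted p = 7.1e-07). As for Pbx3, no knockout library reached the lowest wt library. Hoxb8 supplied 75.3% of all HOX reads in wt, 14.6% in Stat5a-/- and 25.0% in Stat5b-/-. Hoxb6 fell in Stat5a-/- (-1.97, SE 0.166, adjusted p = 7.75e-07), as did Hoxb7 (-2.19, SE 0.413, adjusted p = 0.000982) and Hoxb5 (-1.52, SE 0.193, adjusted p = 3.46e-05). In Stat5b-/- the fall of Hoxb5 was -0.59 (SE 0.178, adjusted p = 0.0157), and it did not pass the test without wt replicate 3 (adjusted p = 0.0749) or without Stat5b-/- replicate 3 (adjusted p = 0.0568). Hoxb4, a gene that expands stem cells when overexpressed, was higher in Stat5b-/- than in Stat5a-/- (0.99, SE 0.202, adjusted p = 0.00221). Hoxb9, of the same paralog group as Hoxa9, had 13, 12 and 7 reads in wt and 0 in all 6 knockout libraries.

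**Figure D5:**
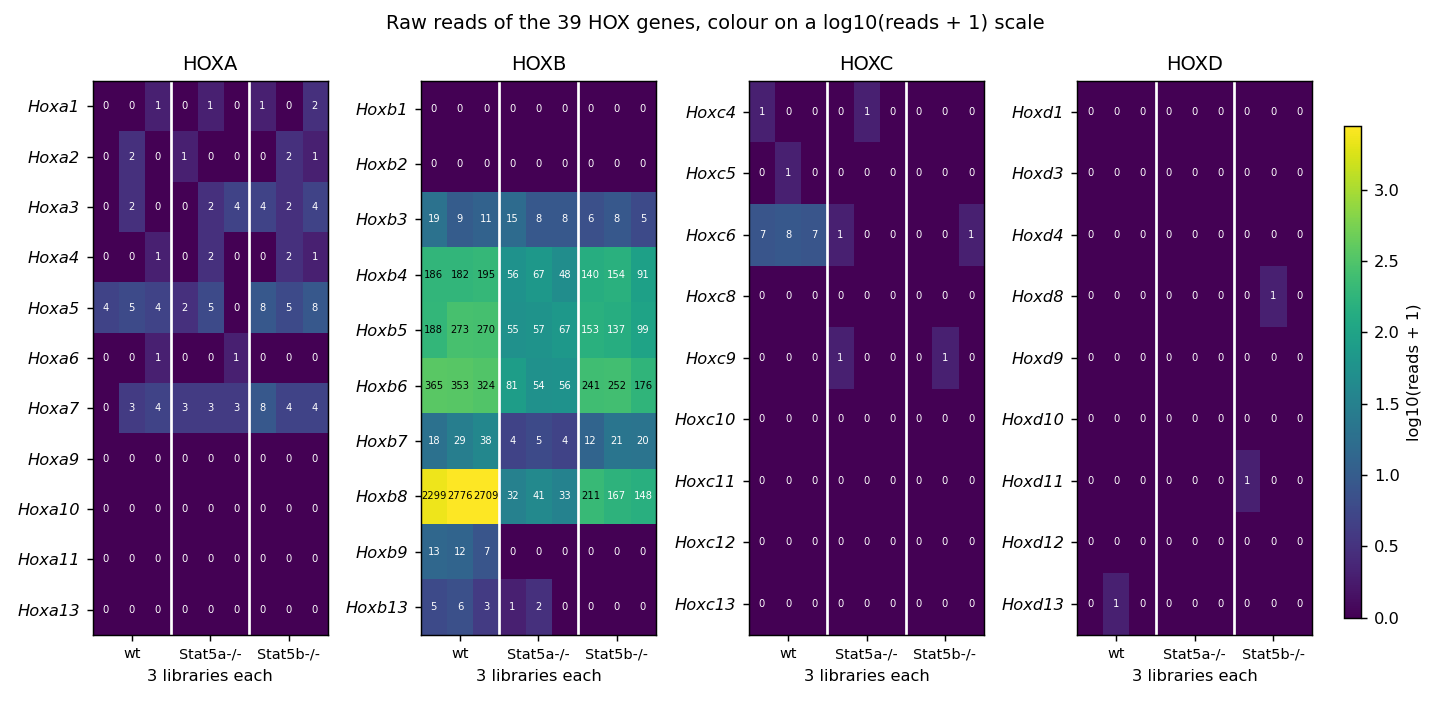
Raw reads of the 39 HOX genes (rows, by cluster) in the 9 libraries (columns, 3 for each line), printed in each cell and colored on a log10(reads + 1) scale. The HOXA, HOXC and HOXD panels stay at or below 8 reads, and Hoxb4, Hoxb5, Hoxb6 and Hoxb8 carry the reads of the HOXB panel.

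Most of the listed genes that set HOX expression were expressed. Of 18 genes for MLL, its complexes and elongation factors and for CDX proteins, 15 passed the filter, and the 3 CDX genes had 0 reads in all 9 libraries. In Stat5a-/- against wt 2 were higher and 5 lower, beside 19.8% and 16.3% of all genes tested, with a median log2 fold change of -0.02. Against wt, Stat5b-/- had 1 higher and 3 lower, beside 24.2% and 22.0%, with a median of -0.09. In Stat5b-/- against Stat5a-/- 3 were higher and 3 lower, beside 16.4% and 17.5%, with a median of 0.04. These counts moved when single libraries were left out and under some other alternatives. Lower calls in Stat5a-/- against wt went from 5 to 3 without wt replicate 3 or Stat5a-/- replicate 1. They also went to 3 with the GC offset and replicate block together. In Stat5b-/- against wt lower calls went from 3 to 1 without Stat5b-/- replicate 2 and to 5 without Stat5a-/- replicate 3. Its higher calls went from 1 to 2 with the GC offset, alone or with the replicate block. Higher calls went from 2 to 1 in Stat5a-/- against wt without wt replicate 2, wt replicate 3 or Stat5a-/- replicate 3, and from 3 to 1 in Stat5b-/- against Stat5a-/- without replicate 1 or 2 of either line, with the replicate block, or with those lines fitted alone. Men1, which encodes the MLL cofactor menin and lies on chromosome 19, rose in Stat5a-/- (0.94, SE 0.127, adjusted p = 5.88e-05), and Kmt2a, the gene for MLL itself, rose in Stat5b-/- (0.62, SE 0.123, adjusted p = 0.00117). All 8 Polycomb genes, whose products keep HOX genes silent, passed the filter. Bmi1 fell in Stat5a-/- (-0.77, SE 0.0999, adjusted p = 4.17e-05) and in Stat5b-/- (-0.76, SE 0.0997, adjusted p = 3.91e-05). Ring1, on chromosome 17, rose by 0.99 (SE 0.113, adjusted p = 1.22e-05) and 0.60 (SE 0.113, adjusted p = 0.000763). In all, 2 Polycomb genes were higher and 2 lower in Stat5a-/- against wt, 2 higher and 1 lower in Stat5b-/- against wt, and 0 higher and 1 lower in Stat5b-/- against Stat5a-/-, with medians of -0.07, -0.17 and 0.02. Beside them, 19.8% and 16.3%, 24.2% and 22.0%, and 16.4% and 17.5% of all genes were called higher and lower. The 2 higher calls in Stat5a-/- became 1 when any single library of wt or Stat5a-/- other than Stat5a-/- replicate 2 was left out, without the filter on low counts, and with the replicate block, alone or with the GC offset. The 1 lower call in Stat5b-/- against wt became 2 without wt replicate 1, without Stat5b-/- replicate 3, and with the GC offset, alone or with the replicate block. The call between the knockout lines was lost without Stat5a-/- replicate 2 or 3 and with the GC offset and replicate block together.

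Of 18 genes linked to HOXA9 and MEIS1 as targets or collaborators, 13 passed the filter. In Stat5a-/- against wt 2 were higher and 6 lower (median -0.05), in Stat5b-/- against wt 5 higher and 6 lower (median 0.05), and in Stat5b-/- against Stat5a-/- 8 higher and 2 lower (median 0.46), beside medians of 0.01, 0.02 and 0.02 over all genes. The shares of all genes called higher and lower were 19.8% and 16.3%, 24.2% and 22.0%, and 16.4% and 17.5% in these comparisons. Without Stat5a-/- replicate 1, Stat5b-/- replicate 1 or Stat5b-/- replicate 3, the 8 higher calls between the knockout lines became 5. Trib2, which encodes a pseudokinase that collaborates with HOXA9, had 3054, 3864 and 3147 reads in wt, 251, 240 and 170 in Stat5a-/-, and 419, 263 and 341 in Stat5b-/-. Like Pbx3 it fell in both knockout lines, with log2 fold changes of -3.44 (SE 0.162, adjusted p = 2.89e-09) and -2.97 (SE 0.157, adjusted p = 7.7e-09). Gfi1, a repressor gene of blood cell differentiation, went in opposite directions, with 59, 81 and 73 reads in wt, 657, 492 and 640 in Stat5a-/-, and 35, 9 and 20 in Stat5b-/-. Its log2 fold change was 3.57 (SE 0.242, adjusted p = 9.61e-08) in Stat5a-/- and -1.41 (SE 0.32, adjusted p = 0.00291) in Stat5b-/- against wt. Flt3, a receptor tyrosine kinase gene often expressed together with HOXA9, had 51 to 79 reads in wt, 12 to 19 in Stat5a-/- and 22 to 39 in Stat5b-/-, and fell in Stat5a-/- (-1.64, SE 0.265, adjusted p = 0.000293) and in Stat5b-/- (-0.73, SE 0.235, adjusted p = 0.0223). Erg, an ETS factor gene of stem cells, rose in Stat5a-/- (1.07, SE 0.117, adjusted p = 9.12e-06), and in Stat5b-/- Lmo2 (0.93, SE 0.129, adjusted p = 6.49e-05) and Ikzf2 (1.08, SE 0.286, adjusted p = 0.00767) rose. Id2 was higher in Stat5b-/- than in Stat5a-/- (1.39, SE 0.126, adjusted p = 2.67e-06).

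The genes with the pattern most like Pbx3 were Trgv2 (Pearson r of log2 normalized CPM 0.996), Sbf2 (0.993) and Aco1 (0.993), over 9 libraries and among 10342 genes with a mean of at least 50 reads. Trgv2 is a variable segment of the T-cell receptor gamma locus, and its level fell from 77.4 ± 9.64 normalized CPM (SD, n = 3) in wt to 0.345 ± 0.317 in Stat5a-/- and 0.611 ± 0.0763 in Stat5b-/-. Those most like Pbx2 were Zdhhc16 (0.994), Arl5c (0.991) and Slc29a1 (0.991). Slc29a1, a nucleoside transporter gene, lies on chromosome 17 as well and had a level of 301 ± 34.3 normalized CPM in wt, of 479 ± 41.6 in Stat5a-/- and of 243 ± 19.5 in Stat5b-/-. The 9 points are replicates of 3 lines, so these correlations mostly follow the means of the lines and are a description.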

How the data were processed

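RNA was sequenced as 50 bp single-end reads from the SENSE mRNA-Seq kit. The authors trimmed reads with Trimmomatic, mapped them with STAR to the GENCODE M13 genome (GRCm38/mm10), counted reads per union gene model with featureCounts, and deposited these raw counts. Strand or overlap options were not given in the sources used here, and such a counter drops reads of overlapping genes. Symbols came from GENCODE M21 for 50376 of 50686 genes.

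Counts were tested with edgeR 4.0.16 (R 4.3.3, TMM, filterByExpr, glmQLFit and glmQLFTest on all 9 libraries, 13852 genes, Benjamini-Hochberg adjustment). Each SE was the absolute log2 fold change divided by the root of F. Levels per kb used the exon length of the count files. Libraries of 1 line differed beyond counting noise (chi-square per degree of freedom 4.63 to 28.0). The p-values cover technical spread. Named in the text were the 7 genes, Stat5a, Stat5b, genes overlapping exons of the 7, up to 4 called genes per list and comparison, and the 3 genes most correlated with each tested gene. Other HOX, MEIS, PBX and PKNOX genes (Hoxa11, Hoxa13, Hoxb9, Hoxc6, Meis3, Pbx4 and Pknox2) and markers at 0 were named after their values were seen. Markers were taken as whole lists, and 2 genes of the lists are not reported here. The genes, lists and tests were chosen with earlier results of these data known. Alternatives were DESeq2 1.42.0, RLE factors, other filters, fits of 2 genotypes, left-out libraries, a replicate block, a GC offset (loess, span 0.5) and a fold change limit of 2. The steps were tested on simulated data.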

Additional observations from a re-analysis of the deposited data

Results flagged for a closer look

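Pbx2 differed between the knockout lines. Against wt it had log2 fold changes of 0.42 in Stat5a-/- and -0.18 in Stat5b-/-, and the difference of these effects, tested directly with edgeR as Stat5b-/- against Stat5a-/-, was -0.60 (SE 0.0946, adjusted p = 0.000331), lower in 3 of 3 libraries. The median of the other genes of chromosome 17 in that comparison was -0.42, and its part in the value was not tested. Groups of 3 libraries were too small for a search for outlying libraries.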

How the results depend on the processing

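Pbx3 kept its fall in Stat5a-/- against wt (log2 fold change -5.25 to -4.72) and in Stat5b-/- against wt (-4.52 to -4.04) past the test under all 17 alternatives. Between the knockout lines it was not past the test under the 16 that could be computed (0.43 to 1.00), since in a fit of those lines alone it failed the count filter. Pbx2 in Stat5b-/- against Stat5a-/- was past the test under all 17 (-0.64 to -0.42). For Pbx2 in Stat5a-/- against wt, the GC offset gave 0.22, and the GC offset with the replicate block gave 0.22 with an adjusted p of 0.0595. For Pbx2 in Stat5b-/- against wt the GC offset gave -0.20 with an adjusted p of 0.0395, and the other 16 alternatives gave an adjusted p above 0.05. The number of the 7 genes called was 0 in place of 1 higher in Stat5a-/- against wt under the GC offset with the replicate block, and 2 in place of 1 lower in Stat5b-/- against wt under the GC offset. With a fold change above 2 required, 0 in place of 1 were higher in Stat5a-/- against wt, and 0 in place of 1 lower in Stat5b-/- against Stat5a-/-. The cause of these changes was not tested, apart from the stricter limit. Without the filter on low counts, 4 in place of 2 HOXB genes and 1 in place of 0 HOXC genes were lower in Stat5b-/- against wt, and 1 HOXC gene was lower in Stat5a-/- against wt. With the fold limit, all calls in the MLL and Polycomb lists were lost. In the list linked to HOXA9, lower calls went from 6 to 2 in both knockout lines against wt, higher calls from 5 to 1 in Stat5b-/- against wt, and between the knockout lines 8 higher became 1 and 2 lower became 1. HOXB genes went from 2 to 1 lower in Stat5b-/- against wt and from 5 to 3 higher in Stat5b-/- against Stat5a-/-. Of the other TALE genes, 0 in place of 2 were higher in Stat5a-/- against wt, 0 in place of 1 higher in Stat5b-/- against wt, and 1 in place of 2 higher and 0 in place of 1 lower in Stat5b-/- against Stat5a-/-. Over all genes 1074 in place of 2739 were higher and 899 in place of 2254 lower in Stat5a-/- against wt, 1471 in place of 3348 and 1169 in place of 3049 in Stat5b-/- against wt, and 666 in place of 2269 and 914 in place of 2429 in Stat5b-/- against Stat5a-/-.

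Deviations from the line means had a mean correlation of -0.09 (-0.45 to 0.22) over 9 pairs of libraries with the same replicate number. Over 18 pairs with different numbers it was 0.04 (-0.43 to 0.39). These overlapping ranges show no pairing by number and cannot exclude it. With the replicate block alone, Pbx3 changed by -4.95 and -4.24 and Pbx2 by 0.42, -0.18 and -0.60, all on the same side of the threshold, and 2420 in place of 2739 genes were higher in Stat5a-/- against wt. A gene with fewer than about 10 reads per library, as 5 of the 7 genes, is limited by depth.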
